A study of Danio rerio with 6 samples.

Results

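The genes described here encode proteins that build ribosomes in the nucleolus. They were chosen by gene name from a list of 57 symbols, and all 57 were found among the 37685 genes of the deposited table. RNA from whole zebrafish larvae of the AB strain at 72 hours post fertilization was sequenced in 6 libraries. The 3 GJB2-MO libraries came from larvae injected at the 1-cell stage with a morpholino against GJB2, a gap junction gene linked to hereditary deafness in humans. The 3 control libraries came from wild-type larvae, which are not described as injected, so injection and knockdown cannot be told apart. How many larvae went into a library, and whether libraries came from separate clutches, is not given. P-values therefore rest on the variation among these 6 libraries alone, and that variation may be technical.

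The morpholino is a synthetic 25-base oligonucleotide, and its sequence is shown because it defines the treated group. The capitals mark the only CAT of the oligonucleotide and the ATG it pairs with in the complementary strand. Such an oligonucleotide can block translation without lowering the RNA of its target.
GJB2-MO: taaagtgctccccaactCATcctgt
Complement, 5′ to 3′: acaggATGagttggggagcacttta
Of gap junction genes under the names in the table, gjb8 is a candidate for the target. It held 114, 14 and 16 counts in the GJB2-MO libraries and 7, 8 and 11 in the controls (adjusted p = 0.288, edgeR's quasi-likelihood test). Every GJB2-MO library was above every control, as for 13.7% of all genes tested, and most GJB2-MO counts came from library 1. gjb8 was too scarce and too uneven to check the labels.

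A ribosome begins in the nucleolus, where RNA polymerase I transcribes a long precursor of ribosomal RNA. Small nucleolar RNAs (snoRNAs) carry protein complexes to the precursor: box C/D particles methylate its riboses and box H/ACA particles convert uridines to pseudouridine. The small subunit processome and a succession of large subunit factors then cut, fold and assemble the precursor with ribosomal proteins. Dividing and growing cells use this machinery most, and in vertebrates the Myc transcription factors are known to raise the expression of many of its genes.

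A library held between 15720292 and 19743658 counts in the GJB2-MO group and between 14582030 and 16725570 in the control group. The whole table was tested, with the rows of each gene summed, by edgeR's quasi-likelihood test with Benjamini-Hochberg adjustment. A gene was called at an adjusted p under 0.05. Levels are given as CPM, which are counts scaled to a common library total after TMM scaling, and fold changes as the log2 of GJB2-MO over control with a standard error (SE). Of 22247 genes tested, 641 were called higher and 737 lower. Marker genes of muscle, skin, neurons, liver and lens were all detected above the count filter. In RNA of whole larvae, fewer cells of a type and less RNA per cell cannot be told apart.

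Of the 57 genes, 55 passed the filter on low counts, and of these 5 fell and none rose. The 5 were nolc1, npm1a, gnl3, tsr1 and fbl. They were 9.09% of the genes tested here, where 3.31% of all genes tested were called lower and 2.88% higher. At an unadjusted p under 0.05 there were 12 lower genes (21.8%) and 2 higher genes (3.64%), beside 11.3% lower and 10.5% higher of all genes tested. DESeq2 called the same 5 lower and none higher, where it called 3.39% of all genes lower and 2.87% higher. With the rows of a gene tested as deposited, the 5 and nop58 were lower and none was higher, beside 4.54% of all rows lower and 3.77% higher. Most of the remaining genes were a little below the controls. A negative log2 fold change was found for 40 of the 55 genes and a positive one for 15, which is 27.3% positive against 51.4% of all genes tested. The median log2 fold change was -0.08, with quartiles of -0.24 and 0.01, beside a median of 0.01 over all genes tested. Only nolc1 and bms1 differed by more than 0.5 on this scale, and bms1 did not pass the test. With 1 library left out, the count of falls was 2, 4 and 2 without GJB2-MO libraries 1, 2 and 3. It was 3, 1 and 2 without control libraries 1, 2 and 3. Over all genes tested, leaving out 1 library also lowered the count of falls, from 737 to between 307 and 593.

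**Figure D1:**
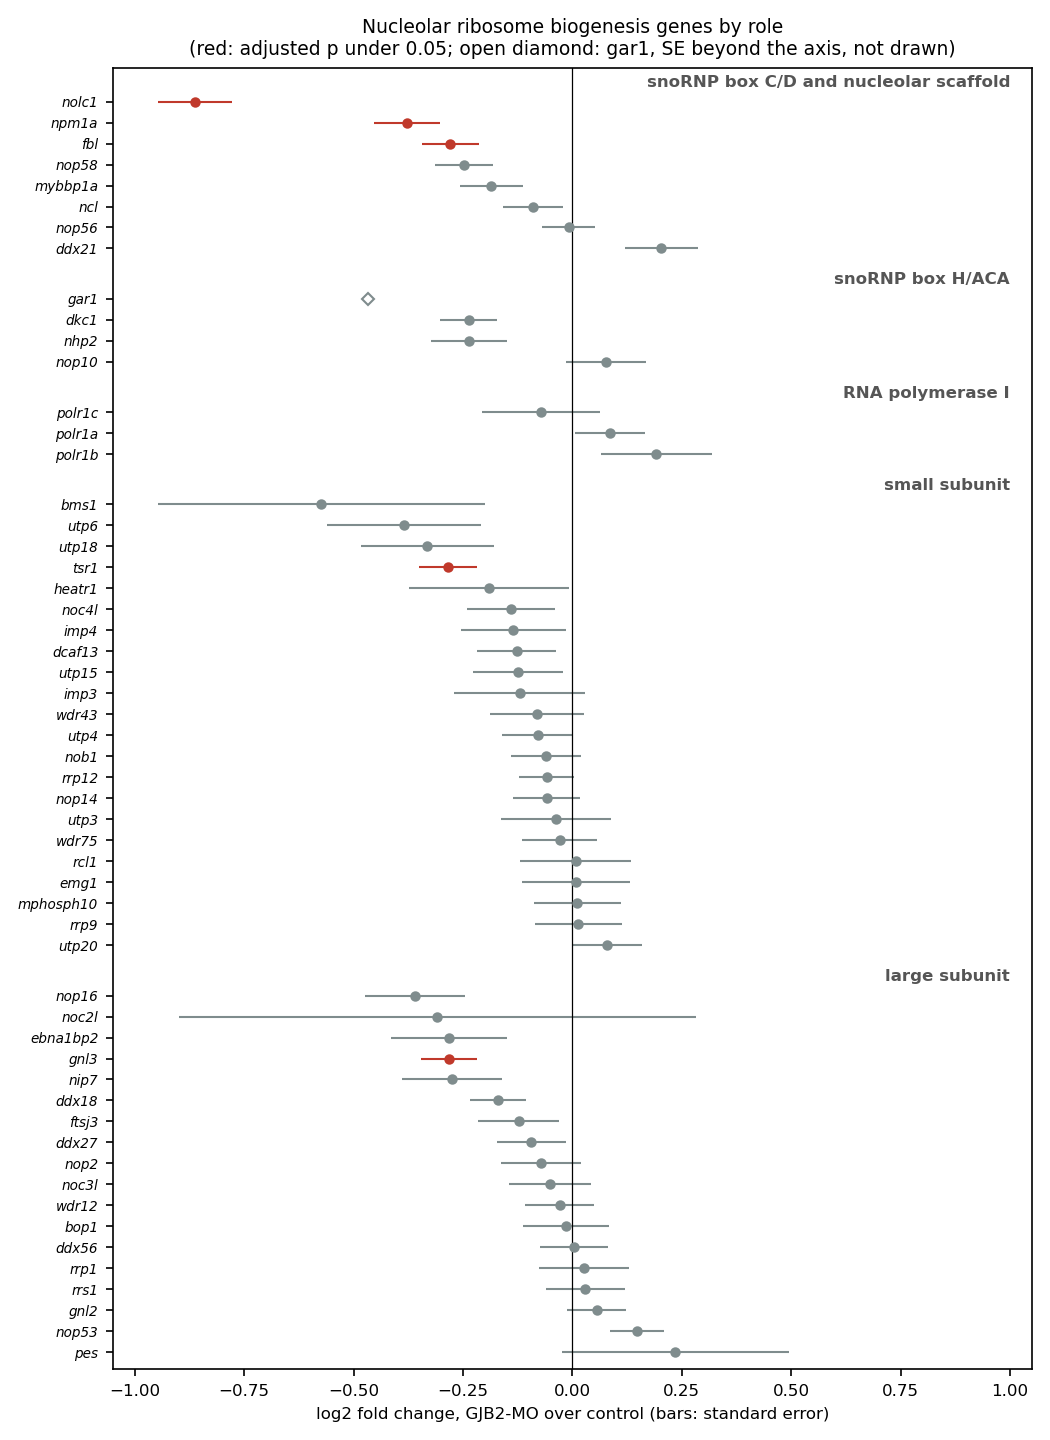
Log2 fold change of GJB2-MO over control for the 55 genes tested, by role and sorted within each role; bars are standard errors and red marks an adjusted p under 0.05. nolc1 stands at -0.86, and the other 4 called genes lie between -0.38 and -0.28. gar1 is an open diamond without its bar, which runs beyond the axis.

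The largest change was that of nolc1, which encodes a heavily phosphorylated chaperone of both snoRNA particle classes that shuttles between the nucleolus and Cajal bodies. This gene (chromosome 13, 4973204 to 4992399, minus strand, GRCz11) has 1 row in the table. It stood at 24.1, 26.0 and 26.4 CPM in the GJB2-MO libraries and at 44.4, 50.5 and 44.2 CPM in the controls. Every GJB2-MO library was below every control, and the groups were far apart relative to their spread. It averaged 25.5 ± 1.23 CPM in GJB2-MO larvae and 46.3 ± 3.57 CPM in controls (SD, n = 3 per group). The log2 fold change was -0.86 ± 0.08 (SE), a level 45.0% lower (adjusted p = 3.54e-04, edgeR). The call held under all 11 alternatives, with log2 fold changes between -0.90 and -0.80.

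nolc1 was the 39th of the 57 genes by level in controls, at 19.5 ± 1.64 TPM, a unit scaled by length and library. In GJB2-MO larvae it was 10.6 ± 0.511 TPM (SD, n = 3 per group). tcof1, whose human counterpart TCOF1 is a relative of NOLC1 and is mutated in Treacher Collins syndrome, was not called. It held 171, 173 and 157 counts in GJB2-MO libraries and 155, 185 and 172 in controls (log2 fold change -0.18 ± 0.12, adjusted p = 0.426). coil, which encodes the Cajal body scaffold coilin, had a log2 fold change of -0.20 ± 0.17 (adjusted p = 0.540); it was chosen after its values were seen.

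npm1a encodes nucleophosmin, an abundant protein of the outer, granular part of the nucleolus. Its 2 rows together gave 87.4, 85.2 and 93.9 CPM in the GJB2-MO libraries and 107, 127 and 112 CPM in the controls. The groups did not overlap, and the log2 fold change was -0.38 ± 0.08 (adjusted p = 0.0156). In the test of rows as deposited both rows were lower, at -0.37 for npm1a (adjusted p = 0.0355) and -0.39 for npm1a_1 (adjusted p = 0.0215). The call was lost without GJB2-MO library 1 or control library 2, and the adjusted p ranged from 0.00135 to 0.0687 over the alternatives.

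fbl encodes fibrillarin, the methyltransferase of the box C/D particles. The gene (chromosome 16, 42177659 to 42186079, minus strand) stood at 101, 107 and 108 CPM in GJB2-MO libraries and at 123, 136 and 123 CPM in controls. All GJB2-MO libraries were below all controls (log2 fold change -0.28 ± 0.07, adjusted p = 0.0311). Leaving out GJB2-MO library 2 kept the call and leaving out any other library lost it, with an adjusted p between 0.016 and 0.138 over the alternatives. The scaffold proteins that hold fibrillarin in the particle are encoded by nop56 and nop58, and neither gene passed. nop58 stood at 66.5, 71.2 and 69.5 CPM in GJB2-MO libraries and at 78.5, 86.3 and 81.4 CPM in controls. Its groups did not overlap, but at a log2 fold change of -0.25 ± 0.07 it missed the threshold (adjusted p = 0.0511). With rows as deposited nop58 passed (adjusted p = 0.0489), and it ranged up to 0.189 over the alternatives. nop56 stood at 182, 192 and 181 CPM in GJB2-MO libraries and at 188, 190 and 180 CPM in controls. Its libraries interleaved, with a log2 fold change of -0.01 ± 0.06 (adjusted p = 0.954).

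Of the other nucleolar scaffold and helicase genes, none passed. ncl encodes nucleolin and was the most abundant gene of the 57 by TPM. It stood at 393, 427 and 432 CPM in GJB2-MO libraries and at 463, 450 and 420 CPM in controls, and the groups overlapped (adjusted p = 0.499). mybbp1a, a nucleolar protein gene tied to the control of RNA polymerase I, had a log2 fold change of -0.19 ± 0.07 (adjusted p = 0.158). ddx21 encodes an RNA helicase active in ribosomal RNA transcription and processing. It gave 321, 402 and 348 CPM in GJB2-MO libraries and 325, 305 and 301 CPM in controls. GJB2-MO library 2 was the highest and library 1 lay within the controls (log2 fold change 0.20 ± 0.08, adjusted p = 0.185). In all, 3 of 8 genes of the box C/D and scaffold group fell (37.5%) and none rose, with a median log2 fold change of -0.22. Of all genes tested, 3.31% were called lower and 2.88% higher. At an unadjusted p under 0.05, which 11.3% of all genes tested passed as lower and 10.5% as higher, the group held 5 lower genes and 1 higher gene.

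**Figure D2:**
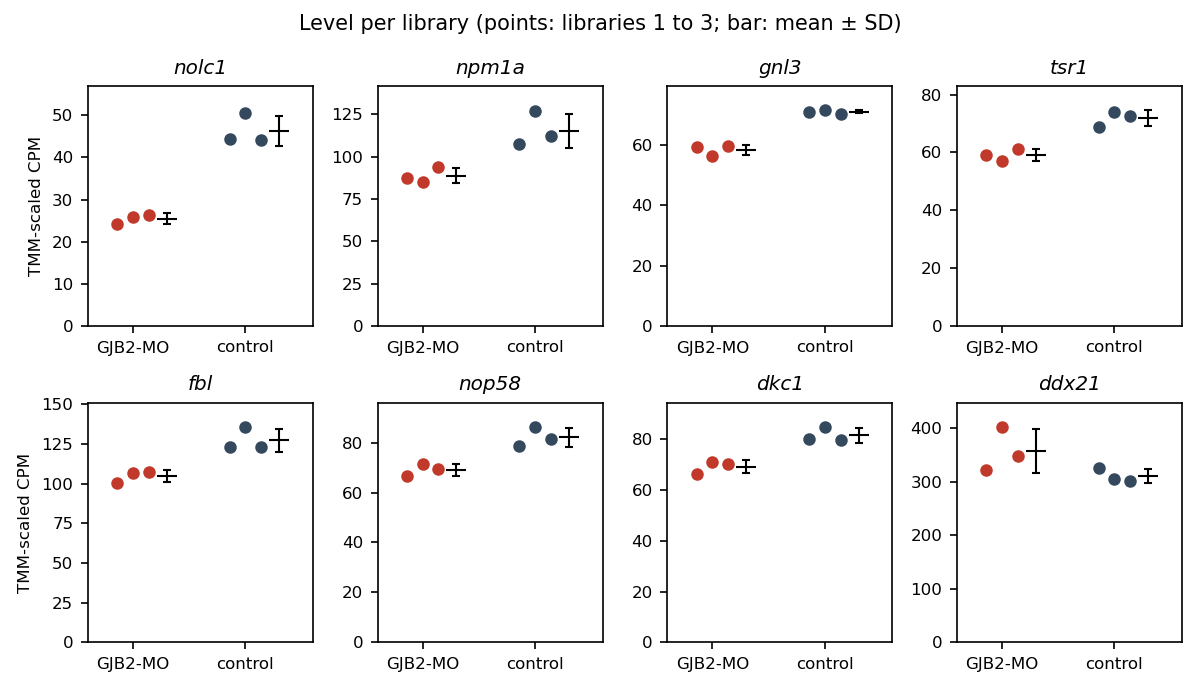
TMM-scaled CPM of 8 genes in each library, GJB2-MO left and control right; points are libraries 1 to 3 and the bar is the mean ± SD. The genes are the 5 called lower, nop58 and dkc1, which have the next smallest p-values, and ddx21. For 7 genes all GJB2-MO points lie below all control points, and for ddx21 GJB2-MO library 1 lies within the controls. Of all 55 nucleolar genes tested, 12 were lower without overlap (21.8%), beside 14.1% of all genes tested.

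The 4 genes of the box H/ACA particle gave no call, also in DESeq2. At an unadjusted p under 0.05, 2 were lower (50%) and none higher, beside 11.3% lower and 10.5% higher of all genes tested. dkc1 encodes dyskerin, the pseudouridine synthase, whose human gene is mutated in dyskeratosis congenita. It stood at 66.5, 71.0 and 70.3 CPM in GJB2-MO libraries and at 80.1, 85.1 and 79.8 CPM in controls. The groups did not overlap, and the log2 fold change of -0.24 ± 0.06 just missed the threshold (adjusted p = 0.0553, and between 0.0514 and 0.192 over the alternatives). nhp2, a core protein of the particle, stood at 23.1, 25.5 and 26.3 CPM in GJB2-MO libraries and at 31.0, 28.1 and 29.2 CPM in controls. These too did not overlap (log2 fold change -0.24 ± 0.09, adjusted p = 0.136). nop10, the smallest core protein, stood at 24.97, 30.28 and 27.16 CPM in GJB2-MO libraries and at 25.05, 26.94 and 26.13 CPM in controls, with overlapping groups (adjusted p = 0.688). gar1 was tested, but its libraries were too uneven for a comparison (log2 fold change -0.47 ± 2.01, adjusted p = 0.929). Its plain row was at 0 in all libraries, and its second row held 13, 9 and 340 counts in GJB2-MO libraries and 398, 45 and 14 in controls. In each group 1 library held most of the counts.

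Several of these genes also carry snoRNA genes within their spans. The table places 13 snoRNA genes on the same strand inside 5 of the genes described here: 5 in dkc1, 3 in nop58, 2 in ncl, 2 in nop2 and 1 in nop56. These 5 are 9.26% of 54 genes tested here, against 0.342% of 22223 genes tested in all. Both totals hold genes with coordinates under their plain name. Rows whose description names a small nucleolar RNA were left out, and this also left out rrp9, a protein gene. The snoRNA rows themselves are 67 to 142 bases long and nearly empty, with 8 counts over the GJB2-MO libraries and 4 over the controls in those 13 rows. The libraries were made from polyadenylated RNA, which mature snoRNAs lack, so these data do not measure the snoRNAs.

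The genes of RNA polymerase I did not pass, in edgeR or DESeq2, and no gene reached an unadjusted p under 0.05. polr1a, for the largest subunit, stood at 57.0, 61.5 and 57.9 CPM in GJB2-MO libraries and at 61.1, 52.3 and 52.9 CPM in controls. Its groups overlapped (log2 fold change 0.09 ± 0.08, adjusted p = 0.583). polr1b, for the second largest subunit, stood at 11.5, 10.4 and 11.0 CPM in GJB2-MO libraries and at 8.58, 10.5 and 9.68 CPM in controls (0.19 ± 0.13, adjusted p = 0.423). The 2 rows of polr1b moved apart in the test of rows as deposited. The first was at 0.65 (adjusted p = 0.0655) and polr1b_1 at -0.28 (adjusted p = 0.439). polr1c, for a subunit shared with RNA polymerase III, had a log2 fold change of -0.07 ± 0.14 (adjusted p = 0.812). polr1d, for the other shared subunit, held 3, 2 and 2 counts in GJB2-MO libraries and 3, 124 and 5 in controls, and was not tested. Nearly all of its control counts came from library 2.

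Among the 22 small subunit genes, tsr1 fell (4.55%) and no gene rose. This share was near that of all genes tested, of which 3.31% were called lower and 2.88% higher. tsr1 (chromosome 15, 25635325 to 25656331, plus strand) encodes a GTPase-like protein that joins late precursors of the small subunit. It stood at 59.06, 56.85 and 61.00 CPM in GJB2-MO libraries and at 68.86, 74.08 and 72.57 CPM in controls. The groups did not overlap (log2 fold change -0.28 ± 0.07, adjusted p = 0.0301). Leaving out control library 1 kept the call and leaving out any other library lost it, with an adjusted p between 0.0234 and 0.111 over the alternatives.

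Of the remaining 21 small subunit genes none passed, also at an unadjusted p under 0.05. Their median log2 fold change was -0.08, and 5 of the 21 were above 0. utp18 and dcaf13, for proteins of the processome, had log2 fold changes of -0.33 ± 0.15 (adjusted p = 0.231) and -0.13 ± 0.09 (adjusted p = 0.454). 6 others had an absolute log2 fold change under 0.05, and their genes include emg1, a methyltransferase, rrp9, a protein bound to the U3 snoRNA, and mphosph10, which joins imp3 and imp4 in the U3 particle. Summed over the 22 genes, the level was 679, 678 and 683 CPM in GJB2-MO libraries and 735, 716 and 729 CPM in controls. All GJB2-MO sums lay below all control sums; a sum over chosen genes was not tested.

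The libraries of bms1 and utp6 differed widely within a group. The coefficient of variation was 42.4% among GJB2-MO libraries and 25.5% among controls for bms1, and 28.7% among GJB2-MO libraries and 2.02% among controls for utp6. bms1, for a GTPase of the processome, held 233, 100 and 143 counts in GJB2-MO libraries and 176, 179 and 291 in controls (log2 fold change -0.57 ± 0.37, adjusted p = 0.455). utp6 held 317, 219 and 168 counts in GJB2-MO libraries and 252, 279 and 293 in controls over its 3 rows (-0.38 ± 0.18, adjusted p = 0.243). Without GJB2-MO library 1, utp6 was called lower at -0.64 (adjusted p = 0.0205, the lowest of the alternatives). With rows as deposited, the row named utp6 alone was at 0.44, on the other side of 0 (adjusted p = 0.719, the highest), and the rows utp6_1 and utp6_2 were both below 0 (adjusted p = 0.736 and 0.434).

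Among 18 large subunit genes tested, gnl3 fell (5.56%) and no gene rose, where 3.31% of all genes tested were called lower and 2.88% higher. gnl3 encodes nucleostemin, a nucleolar GTPase known from stem cells and dividing cells. The gene (chromosome 11, 3959529 to 3971029, plus strand) stood at 59.17, 56.44 and 59.61 CPM in GJB2-MO libraries and at 71.07, 71.49 and 70.37 CPM in controls. The controls lay close together and all GJB2-MO libraries were below them (log2 fold change -0.28 ± 0.06, adjusted p = 0.0259). Of the 6 libraries, GJB2-MO library 2 was the only one that could be left out with the call kept, and the adjusted p lay between 0.0222 and 0.0877. Its relative gnl2 stood at 63.6, 66.5 and 60.1 CPM in GJB2-MO libraries and at 61.9, 59.9 and 61.3 CPM in controls. These overlapped (0.06 ± 0.07, adjusted p = 0.694).

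3 other large subunit genes, none of which passed, had GJB2-MO libraries that all lay below the controls. With gnl3, 4 of the 18 tested were lower without overlap (22.2%) and 1 was higher (5.56%). Of all genes tested, 14.1% were lower and 13.7% higher without overlap. nop16, for a nucleolar protein of large subunit precursors, stood at 15.7, 13.5 and 17.9 CPM in GJB2-MO libraries and at 21.0, 20.1 and 19.4 CPM in controls (-0.36 ± 0.11, adjusted p = 0.0925). nip7, for a precursor processing protein, had a log2 fold change of -0.28 ± 0.11 (adjusted p = 0.186). ddx18, for an RNA helicase, was at -0.17 ± 0.06 (adjusted p = 0.151). ebna1bp2, for a large subunit assembly protein, overlapped between groups at -0.28 ± 0.13 (adjusted p = 0.248).

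nop53, whose protein joins late steps of large subunit maturation, was the only gene of the 55 with every GJB2-MO library above the controls. It stood at 167, 176 and 180 CPM in GJB2-MO libraries and at 162, 156 and 154 CPM in controls, and it did not pass (0.15 ± 0.06, adjusted p = 0.193). In all, 12 of the 55 genes were lower without overlap (21.8%) and 1 was higher (1.82%). Over all genes tested, 14.1% were lower and 13.7% were higher without overlap.

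The PeBoW complex, which joins bop1, pes and wdr12 in large subunit processing, gave no call. bop1 and wdr12 had log2 fold changes of -0.01 ± 0.10 and -0.03 ± 0.08. pes held 410, 387 and 461 counts in GJB2-MO libraries and 244, 461 and 273 in controls (0.24 ± 0.26, adjusted p = 0.675). noc2l, for a nucleolar complex protein, held 97, 139 and 287 counts in GJB2-MO libraries and 152, 297 and 157 in controls (adjusted p = 0.824). wdr74 held 1, 2 and 25 counts in GJB2-MO libraries and 59, 0 and 6 in controls and was not tested. The table describes the row named rrp1 as an ATP-dependent DNA helicase, so whether it is the ribosomal RNA processing gene is uncertain; its log2 fold change was 0.03 ± 0.10.

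**Figure D3:**
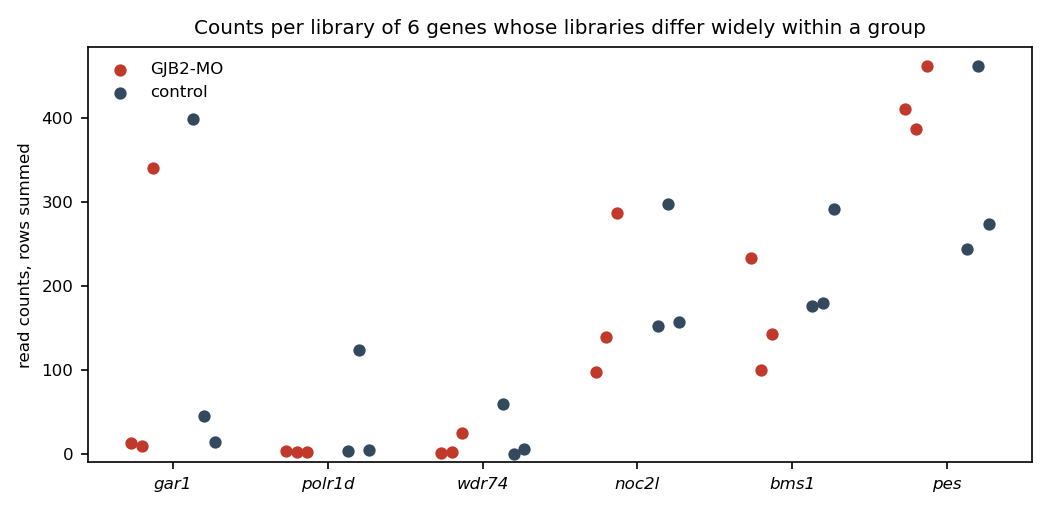
Read counts per library, rows summed, for 6 genes whose libraries differ widely within a group, GJB2-MO left and control right of each pair. For gar1 1 library of each group holds 340 or 398 counts while the others hold 45 or fewer.

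The widest spreads between replicates were found among genes to which the table gives more than 1 row, but not in all of them. The coefficient of variation of the 46 genes with 1 row had a median of 6.86% among GJB2-MO libraries and 5.00% among controls, and reached at most 18.5% and 14.8%. Of the 11 genes with more than 1 row, 7 exceeded 25% in at least 1 group, namely gar1, polr1d, wdr74, noc2l, bms1, pes and utp6. Of these, polr1d and wdr74 held few counts in most libraries. The others stayed under 25%, among them rrp9 at 1.49% and 8.21% and heatr1 at 17.3% and 22.6% in GJB2-MO libraries and controls. The rows of each gene were summed before this spread was computed. In gar1, polr1d, wdr74, noc2l, bms1 and pes, 1 row held all or nearly all of the gene's counts. In utp6 all 3 rows held counts. The cause of the spread, and how the authors' counting placed reads, was not tested. The 5 falls included 1 gene with 2 rows, npm1a.

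By length-scaled level, the 57 genes spanned a wide range in both groups. The highest in controls were ncl at 254 ± 8.31 TPM, ddx21 at 198 ± 3.86 TPM, nop53 at 172 ± 0.583 TPM, fbl at 145 ± 9.59 TPM and nop56 at 134 ± 3.00 TPM (SD, n = 3). In GJB2-MO larvae these were 235 ± 11.2, 224 ± 18.0, 187 ± 8.63, 118 ± 4.54 and 131 ± 0.557 TPM in the same order of genes. fbl stood below nop56 in GJB2-MO larvae and above it in controls, where the means lay about as far apart as their spread. The median of the 57 genes was 21.6 TPM in GJB2-MO larvae and 24.5 TPM in controls, beside 7.03 and 7.12 TPM over all genes tested. Summed over the 57 genes, the level was 2826, 3005 and 2997 CPM in GJB2-MO libraries and 3146, 3140 and 3007 CPM in controls. GJB2-MO library 2 and control library 3 were nearly equal, and this sum was not tested.

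In a list of other ribosome biogenesis factors, 1 of 84 genes tested rose (1.19%) and 3 fell (3.57%), beside 2.88% higher and 3.31% lower of all genes tested, with a median log2 fold change of -0.09 and 22 of 84 above 0. Called lower were ddx24, for an RNA helicase, at -0.47 ± 0.08 (adjusted p = 0.00519), pelp1, a partner of late large subunit precursors, at -0.31 ± 0.07 (adjusted p = 0.0301), and ddx54, for another RNA helicase, at -0.35 ± 0.09 (adjusted p = 0.0478). urb1, for a large subunit factor, rose to 28.9 ± 0.543 CPM in GJB2-MO larvae, against 22.2 ± 0.415 CPM in controls (0.38 ± 0.08, adjusted p = 0.0185). Only 1 fall remained in number without GJB2-MO library 1 or 2 or without any 1 of the controls, and no rise without GJB2-MO library 1 or 3 or control library 1 or 3.

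For neighbouring steps, none of 12 RNA polymerase I partners, 13 snoRNP assembly factors, 13 exosome genes or 11 RNA polymerase III subunit genes was called in edgeR with all libraries and rows summed, and their medians lay between -0.07 and 0.02. At an unadjusted p under 0.05 these 4 lists held 1 higher gene and 4 lower genes. Of all genes tested, 10.5% were higher and 11.3% lower at that threshold. DESeq2 called 1 exosome gene higher. Rows as deposited gave 1 exosome and 1 RNA polymerase III gene lower in edgeR. Leaving out GJB2-MO library 2 gave 1 exosome gene lower, and leaving out control library 2 gave 1 snoRNP assembly factor higher. In the first of these lists polr1h, for a subunit of the polymerase, had the smallest p (0.36 ± 0.23, adjusted p = 0.410). Of snoRNP assembly factors these were ruvbl1, for an ATPase, at -0.24 ± 0.09 (adjusted p = 0.120) and shq1, for a dyskerin chaperone, at 0.30 ± 0.20 (adjusted p = 0.427). Of the exosome they were exosc9 at -0.45 ± 0.14 (adjusted p = 0.0775) and exosc1 at 0.64 ± 0.23 (adjusted p = 0.177), both for parts of the exosome, which trims ribosomal RNA. Of RNA polymerase III, polr3d, for a subunit, was at -0.30 ± 0.14 (adjusted p = 0.235). Among 11 RNA polymerase II subunit genes polr2b, for the second largest subunit, fell by 0.32 ± 0.08 on the log2 scale (adjusted p = 0.0315). This was 9.09% of the list, beside 3.31% of all genes tested, and none was called higher. The median was -0.19, and 9 of the 11 were negative. Without overlap between groups 6 were lower (54.5%) and 1 higher (9.09%), beside 14.1% lower and 13.7% higher of all genes tested. The polr2b call was lost without GJB2-MO library 1 or 3 or any 1 of the controls. Leaving out control library 1 gave 1 RNA polymerase II gene higher.

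The genes of cytosolic ribosomal proteins, the products that this machinery assembles, lay on the other side of 0. Of 81 tested, 67 had a positive log2 fold change (82.7%, against 51.4% of all genes tested), and the median was 0.08. At an unadjusted p under 0.05, 3 were higher (3.7%) and none lower, beside 10.5% higher and 11.3% lower of all genes tested. Without overlap between groups, 7 were higher (8.64%) and none lower, beside 13.7% higher and 14.1% lower of all genes tested. rpl10 and rpl31 rose by 0.26 ± 0.07 (adjusted p = 0.0405) and 0.30 ± 0.08 (adjusted p = 0.0442), and none fell. The share called higher, 2.47%, was near the 2.88% of all genes tested, where 3.31% were called lower. These 2 rises were lost with the replicate number as a block and without GJB2-MO library 1 or 3 or control library 2, and 1 remained in number without any 1 of the other libraries. Their summed level was 77924, 89570 and 78805 CPM in GJB2-MO libraries and 81608, 75939 and 76121 CPM in controls. These sums overlapped between groups.

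**Figure D4:**
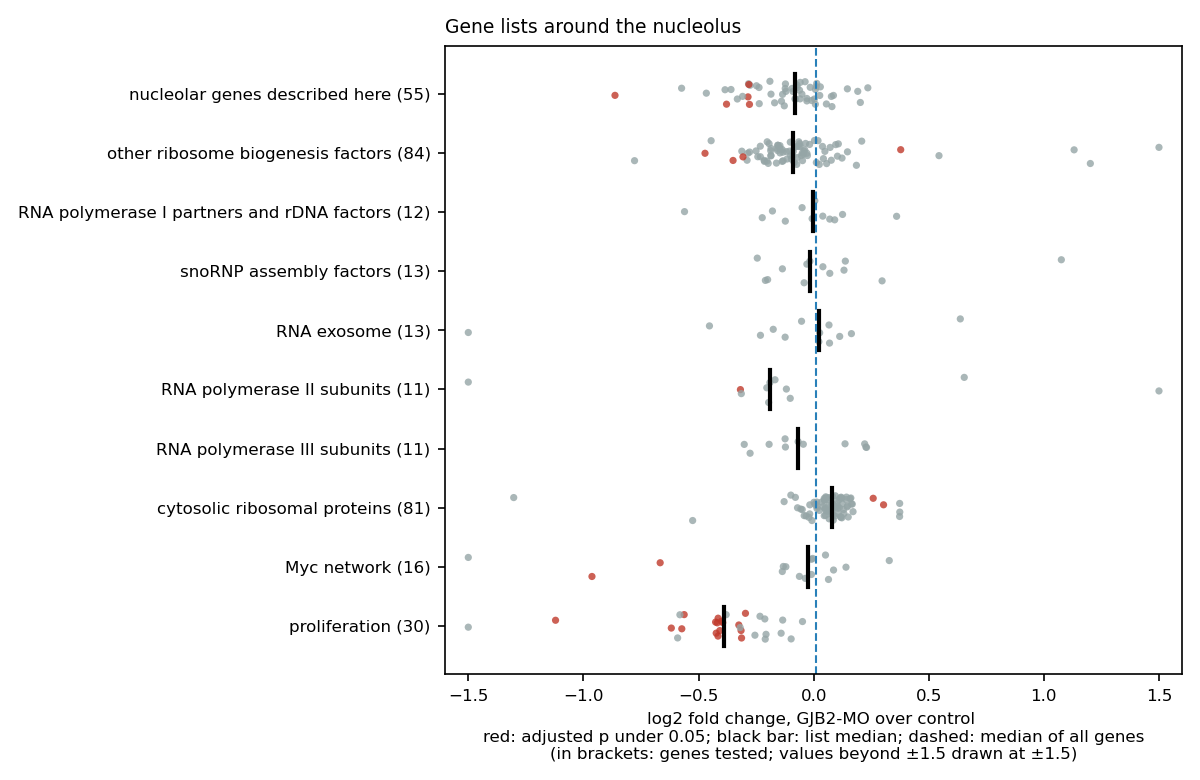
Log2 fold changes of the genes in 10 lists, 1 point per gene tested, with red for an adjusted p under 0.05, a black bar at each list's median and a dashed line at the median of all genes tested. The nucleolar genes and the other ribosome biogenesis factors have medians of -0.08 and -0.09, ribosomal protein genes 0.08 and proliferation genes -0.39.

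Of 16 genes of the Myc network, mych and mycb were called lower (12.5%) and none higher, with a median of -0.02. Both encode Myc transcription factors. The shares over all genes tested were 3.31% lower and 2.88% higher. mych stood at 67.6 ± 9.43 CPM in GJB2-MO larvae and 132 ± 7.19 CPM in controls (SD, n = 3 per group; -0.96 ± 0.09, adjusted p = 5.25e-04, edgeR). mycb stood at 29.1 ± 3.93 CPM in GJB2-MO larvae and 46.2 ± 1.38 CPM in controls (-0.67 ± 0.10, adjusted p = 0.00349). myca and mycn, named after their values were seen, did not pass, at 0.06 ± 0.10 and -0.14 ± 0.07.

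Of 30 proliferation genes 16 fell (53.3%) and none rose, where 3.31% of all genes tested were called lower and 2.88% higher. All 30 had a negative log2 fold change, where 51.4% of all genes tested had a positive one, and the median was -0.39. kif20a, tpx2 and ccnb1, genes of mitosis, fell by 0.56, 0.42 and 0.40 on the log2 scale, and top2a, for a DNA topoisomerase, by 0.39. The list's summed level was 1584, 1553 and 1528 CPM in GJB2-MO libraries and 1829, 1908 and 2039 CPM in controls. The number of falls was 6 and 5 without GJB2-MO libraries 1 and 3, and 5 and 3 without control libraries 2 and 3. The list's sum was lower in every GJB2-MO library than in every control. Whether this sum and the levels of nolc1, npm1a, gnl3, tsr1 and fbl varied together from library to library was not tested. The part of proliferation genes in the falls of these 5 genes was not tested either.

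Among p53 pathway genes, which respond when ribosome assembly is disturbed, 1 of 15 was called, with a median log2 fold change of -0.11. This fall was 6.67% of the list, beside 3.31% of all genes tested. At an unadjusted p under 0.05 the list held 5 lower genes (33.3%) and 1 higher gene (6.67%). Of all genes tested, 11.3% were lower and 10.5% higher at that threshold. rps27l, for a ribosomal protein relative induced by p53, fell by 0.28 ± 0.07 on the log2 scale (adjusted p = 0.0456). DESeq2 called 2 of the list lower, and rows as deposited gave 3 lower. Without control library 1 the list held 2 calls, and without any other 1 library it held none.

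Marker genes of several cell types differed too. The shares over all genes tested were 2.88% called higher and 3.31% lower. At an unadjusted p under 0.05 they were 10.5% higher and 11.3% lower. Exocrine pancreas markers, of a tissue rich in ribosomes, were all 15 positive with a median log2 fold change of 0.65. Of these, cel.2 rose by 0.78 ± 0.12 (adjusted p = 0.00964) and cpa5 by 0.72 ± 0.14 (adjusted p = 0.0312), which was 13.3% of the list. The summed level of the 15 was 11093, 12703 and 10057 CPM in GJB2-MO libraries and 8815, 6819 and 6328 CPM in controls. 7 of the 15 were called without control library 1 and none without control library 2. Of cartilage markers 8 of 10 fell (80%) with a median of -0.49, led by matn1, col11a2, epyc and sox9b. Without any 1 library other than GJB2-MO library 2, 4 to 6 fell. Of skin markers 4 of 10 rose (40%; krt8, krt91, cyt1 and icn2), and 3 of 11 macrophage and neutrophil markers rose (27.3%; mpeg1.2, mpx and cybb). Without 1 library these rises numbered 1 to 3 and 1 to 3. At an unadjusted p under 0.05, 5 skin markers were higher (50%) and 1 was lower (10%), and DESeq2 called 5 skin markers higher and 1 lower. Enterocyte, liver and erythroid markers gave 1 rise each, of anpepb.1, serpina1 and hbbe1.1 (10%, 10% and 12.5%), and each was lost without at least 3 of the libraries. Most erythroid markers went the other way. Of 8 tested, 6 had a negative log2 fold change and 2 a positive one, with a median of -0.22. At an unadjusted p under 0.05, 3 were lower (37.5%) and 1 was higher (12.5%). Of 10 enterocyte and 10 liver markers, 3 and 2 had a negative log2 fold change, with medians of 0.25 and 0.08. At the unadjusted threshold 3 enterocyte markers were higher (30%) and none lower. Of liver markers 2 were higher (20%) and 1 was lower (10%).

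No marker of muscle, neurons, neural and retinal progenitors or lens was called in edgeR with the count filter, all libraries, rows summed and no replicate block. Other edgeR settings called some of them. Muscle held 1 lower gene without the filter, with the replicate number as a block and without control library 3, and 2 without GJB2-MO library 2, where progenitors held 1 lower gene. Rows as deposited gave 1 higher and 1 lower lens marker. At an unadjusted p under 0.05 muscle held 5 lower genes (41.7%) and neurons 3 higher (27.3%) and 1 lower (9.09%). Progenitors held 3 lower (25%) and lens 2 higher (20%). Over all genes tested, 11.3% were lower and 10.5% higher at that threshold. DESeq2 called 4 muscle markers lower and 1 neuron and 1 lens marker higher, where it called 3.39% of all genes lower and 2.87% higher. The smallest p-values were those of acta1a (-0.30, adjusted p = 0.0678) and acta1b for muscle, sv2a (0.21, adjusted p = 0.0661) and nefmb for neurons, neurod1 (-0.25, adjusted p = 0.0718) and insm1a for progenitors, and crygn2 (0.29, adjusted p = 0.101) and cryba2a for lens. Whether these cell types contributed to the falls of nucleolar genes was not tested.

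**Figure D5:**
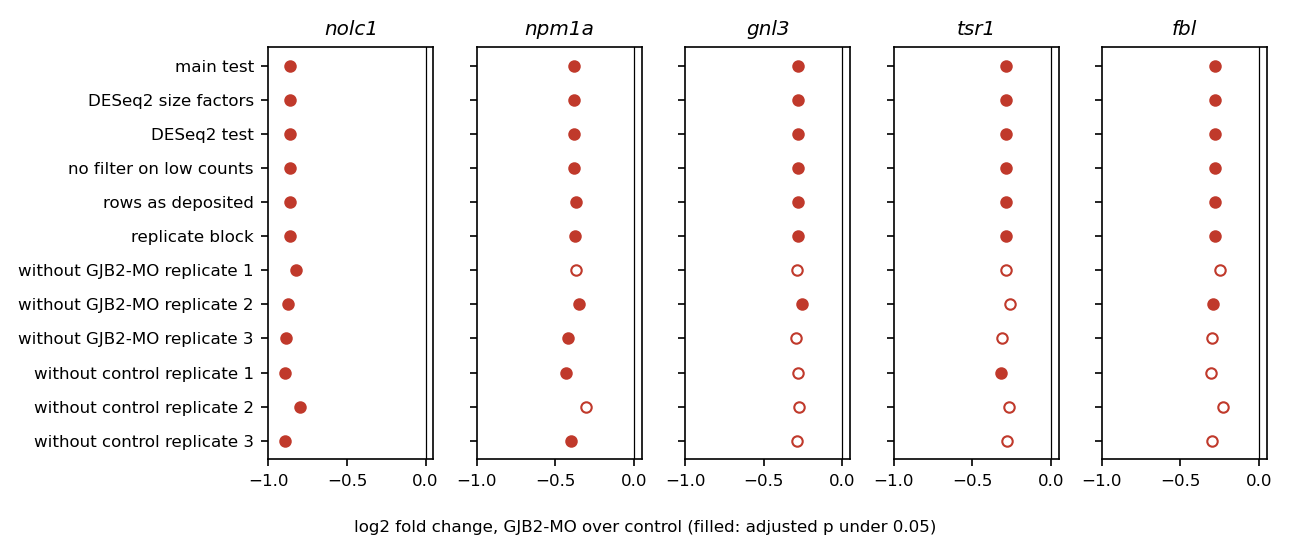
Log2 fold change of the 5 called genes in the main test and under 11 alternatives, 1 row each; filled points have an adjusted p under 0.05. nolc1 is filled in every row, and gnl3, tsr1 and fbl are open in 5 of the 6 rows that leave out a library.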

How the data were processed

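The read counts deposited by the authors are whole numbers per row and not normalized. The FPKM deposited by the authors, scaled by length and depth, were not used. The TPM deposited by the authors, scaled by length to the same sum in each library, served to compare levels between genes. The submitters' processing notes name HISAT2, StringTie 1.3.1, RSEM and GRCz11, with no role or order. The sources used here do not state whether reads were counted by strand. Coordinates are those of the table, 1-based on GRCz11.

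Rows named as a gene plus a number (16024 of 53709) were summed into that gene, an inference from names. edgeR 4.0.16 in R 4.3.3 kept genes by filterByExpr (minimum count 10, minimum total 15), scaled with TMM, and fitted a robust quasi-likelihood model to 3 GJB2-MO and 3 control libraries, with no covariate. The SE is the log2 fold change over the square root of F. Alternatives were DESeq2 1.42.0, its size factors in edgeR, no filter, rows as deposited, a replicate block and leaving out each library.

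The members and lists were chosen with earlier results of these data known. Named were called genes, the 20 smallest p-values, particle core and polymerase genes, and up to 4 called genes of each list, or 2 where none passed. 1 gene that this rule names is not reported here. Promoters and proteins were not analysed here.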

Additional observations from a re-analysis of the deposited data

How the results depend on the processing

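Over all genes, 930 rows were called higher and 1119 lower with rows as deposited; leaving out 1 library gave 272 to 477 higher and 307 to 593 lower genes. Falls among the nucleolar genes numbered 1 to 4 without 1 library, utp6 being added without GJB2-MO library 1, and 6 with rows as deposited, nop58 being added. No rise was called under any alternative, and the median log2 fold change stayed between -0.11 and -0.07. Of 55 repeats of the 5 called genes under the 11 alternatives, 38 kept the call, 17 lost it, all on leaving out a library, and none turned. By role, leaving out 1 library gave 1 to 3 falls of box C/D and scaffold genes, 0 to 1 of small subunit genes and 0 to 1 of large subunit genes. The shared replicate numbers are not said to pair the libraries, and the log2 CPM deviations of same-numbered libraries correlated at -0.03, 0.05 and -0.00. With the replicate number as a block, 661 genes were called higher and 701 lower, and the same 5 nucleolar genes fell. The count filter removed polr1d and wdr74, which were not tested. polr1d held 124 counts in control library 2 and 5 or fewer in every other library. wdr74 held 59 counts in control library 1, 25 in GJB2-MO library 3 and 6 or fewer in every other library.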
